A study of Homo sapiens with 6 samples.

Results

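The insulin-like growth factor (IGF) axis of H1155 cells was described from 10 named genes: the ligand IGF2, the receptors IGF1R and IGF2R, and the binding proteins IGFBP1 to IGFBP7. They were taken by gene name and occupied 11 of the 58735 rows of the count table, because IGF2 is listed under 2 Ensembl identifiers. The family was chosen with the difference between the groups compared here already known, so the values of its genes are given as a description and without a test. H1155 is a neuroendocrine large cell lung cancer line, and all cells were grown in DMEM with fetal bovine serum and left untreated. RNA-Seq was done on 3 WT-labelled and 3 GFI1-KO-labelled libraries. The GFI1-KO cells came from transfection with Cas9 and guide RNAs against the promoter region of GFI1, a zinc finger transcriptional repressor known from blood cells, followed by sorting of monoclonal GFP+ cells. How many clones the 3 libraries stand for is not given in the sources used here, and neither is whether the libraries come from separate cultures, so p-values measure only the spread between these libraries, which may be technical.

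IGF1 and IGF2 signal through IGF1R, a receptor tyrosine kinase that passes the signal to docking proteins and from there to the PI3K-AKT and RAS-ERK pathways. IGF2R, the cation-independent mannose 6-phosphate receptor, carries IGF2 to the lysosome for degradation and also sorts lysosomal enzymes. The binding proteins IGFBP1 to IGFBP6 hold IGFs in the extracellular space with high affinity, extend their life and limit or guide their access to IGF1R, and proteases release the ligand again, whereas IGFBP7 binds IGFs weakly. In lung cancer cells, IGFBPs are mostly studied as secreted proteins that restrain or enhance IGF signals, and several also act without IGFs.

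The label GFI1-KO was not matched by a lower GFI1 count. GFI1 had 153, 106 and 125 counts in the WT-labelled libraries and 174, 188 and 170 in the GFI1-KO-labelled ones, with no overlap between the groups, and its log2 fold change was 0.31 ± 0.12 (SE; adjusted p = 0.0273, edgeR quasi-likelihood test). That call was lost without WT library 2 (0.21, adjusted p = 0.147), WT library 3 (0.28, adjusted p = 0.0633) or GFI1-KO library 2 (0.27, adjusted p = 0.0927), and under DESeq2 (0.31, adjusted p = 0.0720), upper-quartile factors (0.27, adjusted p = 0.0545) and the correction for GC and length (0.21, adjusted p = 0.145), but GFI1 was lower in GFI1-KO under no alternative run. Directions below therefore rest on the labels alone. The libraries held between 14882914 and 17692882 counts, and the smallest level counted as shown, 3 counts, stood for 0.170 to 0.202 CPM, a floor that covers counting error only. Of 17514 genes that passed the filter on low counts, 72.4% passed an adjusted p of 0.05 between the groups, 36.5% higher and 35.9% lower in the GFI1-KO-labelled libraries, and 74.4% had normalized counts that did not overlap between the groups. Of 9 neuroendocrine markers, 6 were higher and 3 lower, and their summed level was 1619 to 1652 CPM in WT and 2025 to 2040 CPM in GFI1-KO.

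Of the 10 genes, 8 passed the filter on low counts. The difference of 7 of these was called higher and that of 1, IGFBP5, lower in the GFI1-KO-labelled libraries, beside the 36.5% and 35.9% of all tested genes named above. The median log2 fold change of the 8 was 0.94, that of all tested genes 0.00. The filter left out IGFBP1 and IGFBP7 and the second row of IGF2, which had no count. Because these genes were chosen on this contrast, nothing is read from these counts.

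The ligand was scarce. IGF2 (ENSG00000167244; hg38 chr11:2129112-2149603, minus strand) had 14, 10 and 11 counts in WT and 28, 36 and 40 in GFI1-KO, so the groups did not overlap. Its normalized count was 12.3 ± 1.76 in WT and 32.8 ± 5.60 in GFI1-KO (SD, n = 3), for a log2 fold change of 1.40 ± 0.31 (SE). This value is uncertain, since 40.1% of the 50-base words in the transcripts of this row also occur in other genes, among them the second IGF2 row and INS-IGF2, and since the antisense gene IGF2-AS overlaps it and had between 8 and 25 counts a library. Where the strand was not used in counting, reads of IGF2 and IGF2-AS cannot be told apart. IGF1 and insulin (INS) had no count in any library, and neither had INS-IGF2, the read-through of the neighbouring INS and IGF2 genes. In each of the 6 libraries, 0 counts allow a level of up to the floor of 3 counts.

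Both receptors were well covered. IGF1R (chr15:98648539-98964530, plus strand) had 1361, 1238 and 1312 counts in WT and 2062, 1966 and 1968 in GFI1-KO. All 3 GFI1-KO libraries were above all 3 WT libraries, at a log2 fold change of 0.46 ± 0.04 (SE), 1.37-fold. IGF2R (chr6:159969099-160113507, plus strand) had 2841, 2785 and 2955 counts in WT and 3927, 3822 and 3869 in GFI1-KO. Here, too, the groups were apart, and the difference was 0.28 ± 0.04 on the log2 scale, 1.21-fold. The related insulin receptor INSR, which was not chosen, had 248, 232 and 283 counts in WT and 326, 325 and 318 in GFI1-KO, and its log2 fold change of 0.18 ± 0.09 did not pass the threshold (adjusted p = 0.0612, edgeR). It passed when WT library 3 was left out (0.25, adjusted p = 0.0168, edgeR) and once GC content and length were corrected for (0.21, adjusted p = 0.0375, edgeR).

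Among the binding proteins, IGFBP3 and IGFBP5 stood at opposite ends. IGFBP3, the main IGF carrier of blood plasma, was near the floor in the WT-labelled libraries, where it had 2, 0 and 0 counts, and had 128, 103 and 118 counts in the GFI1-KO-labelled ones (chr7:45912245-45921874, minus strand). Per depth, the summed counts of 2 and 349 differed 156-fold, with a 95% exact interval of 42.9 to 1294 that covers counting error only. The fitted log2 fold change, 7.05 ± 0.42 (SE), leans on the 2 counts of WT library 1 and was 9.79 without that library. IGFBP5 (chr2:216672105-216695525, minus strand), a binding protein that attaches to extracellular matrix, went the other way, with 312, 269 and 307 counts in WT and 11, 16 and 12 in GFI1-KO. Its normalized count was 313 ± 13.4 in WT and 12.3 ± 2.50 in GFI1-KO (SD, n = 3). The log2 fold change was -4.66 ± 0.16 (SE), a 25.2-fold difference, and IGFBP5 was the only tested gene of the 10 that was lower in GFI1-KO.

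IGFBP6 and IGFBP4 were both higher in the GFI1-KO-labelled libraries. IGFBP6 (chr12:53097436-53102345, plus strand), which prefers IGF2 over IGF1, had 51, 30 and 37 counts in WT and 330, 348 and 371 in GFI1-KO. The lowest GFI1-KO library stood far above the highest WT library, and the log2 fold change was 2.99 ± 0.14 (SE), 7.94-fold. IGFBP4 (chr17:40443461-40457731, plus strand), a binding protein that the protease PAPPA cleaves, had 136, 141 and 153 counts in WT and 400, 401 and 373 in GFI1-KO. The groups did not overlap, and the log2 fold change was 1.29 ± 0.09 (SE), 2.44-fold.

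IGFBP2 was the most abundant binding protein transcript in both groups. It had 1783, 1571 and 1643 counts in WT and 2900, 2727 and 2812 in GFI1-KO (chr2:216632828-216664436, plus strand), without overlap. The log2 fold change was 0.60 ± 0.04 (SE), 1.51-fold. Other genes share 1.32% of its 50-base words. The 2 remaining binding proteins had few counts. IGFBP7 (chr4:57030773-57110385, minus strand) had 0, 2 and 4 counts in WT and 11, 10 and 13 in GFI1-KO, which sum to 6 and 34, a ratio of 5.07 with a 95% exact interval of 2.10 to 14.8 for counting error only. At its lower end it overlaps POLR2B on the opposite strand, a gene with 3367 to 4255 counts a library that ends at chr4:57031168. Without strand, IGFBP7 reads in that short stretch cannot be told apart from those of POLR2B. How many of its few reads lie there is not known from counts per gene. IGFBP1 (chr7:45888357-45893668, plus strand), a binding protein made mainly by the liver, had 2, 0 and 0 counts in WT and none in GFI1-KO, both at or under the floor.

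**Figure D1:**
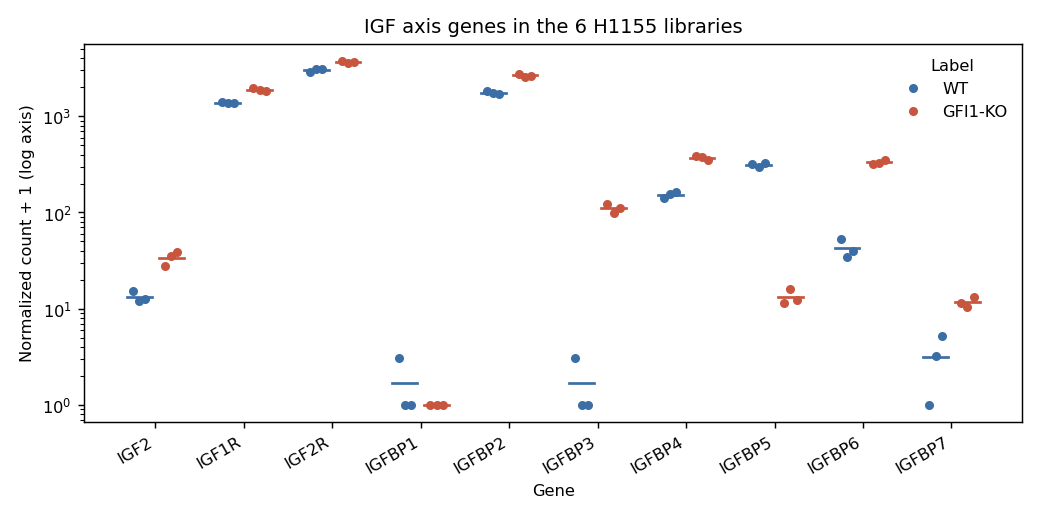
Normalized counts plus 1 on a log axis for the 10 IGF axis genes, with 1 point for each of the 6 libraries and a line at the group mean. IGFBP3 stands at 0.683 ± 1.18 in WT and 110.2 ± 12.2 in GFI1-KO (mean and SD, n = 3), IGFBP5 at 313 and 12.3, and IGFBP1 lies at the bottom of the axis in both groups.

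IGFBP2 and IGFBP5 lie tail to tail on chromosome 2 with 7.67 kb between their ends, and IGFBP1 and IGFBP3 tail to tail on chromosome 7 with 18.6 kb between theirs. The genes of a pair differed from each other. IGFBP2 was 1.51-fold higher in GFI1-KO beside an IGFBP5 that was 25.2-fold lower, and IGFBP1 stayed at or under 2 counts in every library beside an IGFBP3 with over 100 counts in each GFI1-KO library.

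RefSeq promoters (GRCh38.p14, the 250 bases before the transcript start) were at hand for 7 of the 10 genes, and those of IGFBP3, IGFBP4, IGFBP5 and IGFBP6 are shown because these binding protein genes differed most between the groups in tested rows. Capitals mark AATC, the core of the DNA site that GFI1 is known to bind, read on both strands (GATT on the other), and TATAAA or TATATA, spellings of the TATA box, also on both strands. RefSeq starts and the ends of the deposited genes do not coincide. The sequences run 5′ to 3′ on the strand of the gene and end at the last base before the start.
IGFBP3 (chr7:45921273-45921522, minus strand): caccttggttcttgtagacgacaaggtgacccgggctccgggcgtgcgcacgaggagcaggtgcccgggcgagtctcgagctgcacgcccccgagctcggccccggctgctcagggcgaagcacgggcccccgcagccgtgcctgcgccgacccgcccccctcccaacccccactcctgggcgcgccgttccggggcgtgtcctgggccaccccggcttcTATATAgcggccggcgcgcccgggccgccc
IGFBP4 (chr17:40443200-40443449, plus strand): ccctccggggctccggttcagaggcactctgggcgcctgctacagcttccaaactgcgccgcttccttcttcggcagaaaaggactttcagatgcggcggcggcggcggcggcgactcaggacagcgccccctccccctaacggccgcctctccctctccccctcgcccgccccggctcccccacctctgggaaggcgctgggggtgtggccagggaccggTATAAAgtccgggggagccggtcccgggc
IGFBP5 (chr2:216695550-216695799, minus strand): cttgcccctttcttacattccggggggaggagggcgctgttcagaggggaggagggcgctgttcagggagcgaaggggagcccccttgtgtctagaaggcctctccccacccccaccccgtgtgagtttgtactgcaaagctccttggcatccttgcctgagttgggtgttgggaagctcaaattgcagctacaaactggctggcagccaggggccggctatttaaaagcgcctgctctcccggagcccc
IGFBP6 (chr12:53097417-53097666, plus strand): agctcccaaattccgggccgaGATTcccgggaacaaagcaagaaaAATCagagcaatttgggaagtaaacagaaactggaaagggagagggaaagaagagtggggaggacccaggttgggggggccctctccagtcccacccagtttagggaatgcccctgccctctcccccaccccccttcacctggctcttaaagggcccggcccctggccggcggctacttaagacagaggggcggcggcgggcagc
The IGFBP6 window holds 2 AATC matches, and those of IGFBP3, IGFBP4 and IGFBP5 hold 0. Of all 35116 RefSeq promoters of this length, 64.8% hold at least 1. A TATA match stands 30 bases before the start of IGFBP3 and 29 before that of IGFBP4, while 12.8% of all promoters hold one anywhere in the window. Other spellings were not searched, so a window without a match may still hold a TATA box. TATTTAAA near the end of the IGFBP5 window, for example, was not counted. A match is a description of letters, and GFI1 binding was not measured in these files.

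Per length, the order of the 10 genes differed between the groups. In FPKM, the WT order from the highest mean was IGFBP2 (22.4), IGF2R (10.3), IGF1R (6.01), IGFBP4 (4.19), IGFBP5 (2.95) and IGFBP6 (1.87), and neighbours in this order did not overlap. IGF2 (0.107), IGFBP7 (0.0672), IGFBP1 (0.0250) and IGFBP3 (0.00906) followed, each with a range that overlapped the next. In GFI1-KO, IGFBP2 (33.5) again came first in FPKM, now followed by IGFBP6 (14.8), IGF2R (12.3), IGFBP4 (10.1), IGF1R (8.15) and IGFBP3 (1.45), without overlap. IGFBP7 (0.334) and IGF2 (0.282) overlapped each other, and IGFBP5 (0.115) came next to last, above IGFBP1 at 0. IGFBP6 thus held the sixth place in WT and the second in GFI1-KO, and IGFBP5 the fifth and the ninth.

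The composition of the binding protein transcripts differed accordingly. The summed FPKM of IGFBP1 to IGFBP7 was 31.6 ± 0.879 in WT and 60.3 ± 0.933 in GFI1-KO (SD, n = 3), a ratio of 1.91, and without IGFBP2 it was 9.11 and 26.8, a ratio of 2.94. IGFBP2 made up 71.1% ± 0.886 of this sum in WT and 55.6% ± 1.06 in GFI1-KO. The share of IGFBP6 was 5.90% ± 1.22 in WT and 24.5% ± 1.46 in GFI1-KO, and that of IGFBP5 was 9.35% ± 0.310 and 0.191% ± 0.0418. IGFBP4 held 13.3% ± 1.31 and 16.8% ± 0.831, and IGFBP3 reached 2.40% ± 0.228 in GFI1-KO from 0.0278% in WT. These shares depend on the scale per length. Of summed counts, IGFBP2 held 77.6% in WT and 76.1% in GFI1-KO, IGFBP4 6.70% and 10.6%, IGFBP6 1.82% and 9.47%, and IGFBP5 13.8% and 0.353%, so that IGFBP4 stood above IGFBP6 in both groups on that scale. In bulk RNA, fewer cells with a transcript and less of it per cell cannot be told apart.

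GC content moved with the contrast. Over all tested genes, Spearman's rho between the log2 fold change and the GC content of the gene was 0.57, a description across genes, which are not independent, and it was close to 0 after offsets for GC content and length had been fitted to each library. With these offsets, the log2 fold change of IGFBP2 was 0.23 instead of 0.60, that of IGFBP4 0.60 instead of 1.29, that of IGFBP6 2.24 instead of 2.99 and that of IGF2 0.93 instead of 1.40. IGFBP3 (6.98), IGFBP5 (-4.71) and IGF1R (0.44) moved little, and IGF2R stood at 0.37. The 8 genes kept their direction. The ratios of 1.91 and 2.94 for the summed FPKM of the binding proteins, and their shares, were computed without these offsets. Whether the GC trend is technical was not tested.

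**Figure D2:**
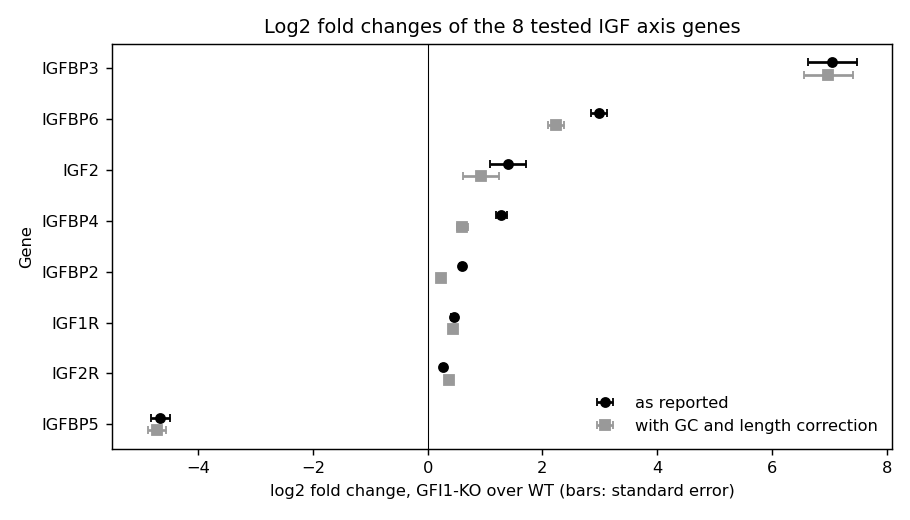
Log2 fold changes (GFI1-KO over WT) of the 8 tested IGF axis genes with standard errors, as reported (black circles) and with the GC and length correction (grey squares). IGFBP3 and IGFBP5 stand far from 0 on either side in both, and IGFBP2, IGFBP4, IGFBP6 and IGF2 come closer to 0 with the correction.

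The genes around the IGF axis, from lists of the pathway that leave out the 10 genes above, changed in both directions. Of 64 listed genes, 52 were tested, and 25 rose and 23 fell in the GFI1-KO-labelled libraries. Of the 52, 92.3% were called, beside 72.4% of all tested genes (edgeR, adjusted p of at most 0.05). Over all tested genes, 36.5% were higher and 35.9% lower. The median log2 fold change of the 52 was 0.10, beside 0.00 over all tested genes. These lists, too, were chosen with earlier results of these data known. Nothing is therefore read from these shares or from the counts of each list below. With the GC and length correction, 25 were higher and 15 lower. Over all tested genes, too, fewer were called lower with this correction, so the drop is not specific to these lists. Of the 48 called genes, 35 kept their call under it, 11 lost it and 2 turned to the opposite call.

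Of the relatives of the binding proteins, 4 of 5 tested were called higher, beside 36.5% of all tested genes. They included CTGF and CYR61, with means of 20.8 and 66.7 counts. Without GFI1-KO library 3, the number called higher was 3. NOV, a secreted matrix protein of the CCN family with an IGFBP-like domain, had 258, 217 and 255 counts in WT and 777, 797 and 779 in GFI1-KO, for a log2 fold change of 1.53 ± 0.07 (adjusted p = 1.8e-16, edgeR). KAZALD1, another secreted protein with an IGFBP-like domain, rose by 0.96 ± 0.10 on the log2 scale (adjusted p = 3.8e-09, edgeR). IGFBPL1, an IGFBP-like protein, fell from a normalized count of 2560.1 to 1544, with a log2 fold change of -0.73 ± 0.04 (adjusted p = 7.7e-14, edgeR). With the GC and length correction, NOV stood at 1.66, KAZALD1 at 0.42 and IGFBPL1 at -0.89, all still called. ESM1 had no count.

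Of the proteases that cleave IGFBPs and their inhibitors, 3 of 5 were tested, of which 1 rose and 2 fell. PAPPA and PAPPA2, the pappalysins that cleave IGFBP4 and IGFBP5, had between 1 and 14 counts a library and were not tested. STC2, a stanniocalcin that inhibits pappalysins, rose by 0.50 ± 0.04 on the log2 scale (adjusted p = 1.8e-11, edgeR), from 1345, 1236 and 1314 counts to 2073, 2088 and 2018. HTRA1, a serine protease that cleaves IGFBP5, had a log2 fold change of -0.35 ± 0.11 (adjusted p = 0.0063, edgeR). This call was lost without GFI1-KO library 2 (-0.20, adjusted p = 0.0854, edgeR), which leaves 1 gene of the list lower. STC2 (0.52) and HTRA1 (-0.84, adjusted p = 6.3e-07, edgeR) kept their calls with the GC and length correction.

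The docking proteins and adaptors below the receptors split evenly, with 6 of 11 tested genes higher and 5 lower. The insulin receptor substrates IRS1 and IRS2, which couple IGF1R to PI3K, went apart. IRS1 had 276, 332 and 313 counts in WT and 574, 598 and 565 in GFI1-KO, for a log2 fold change of 0.75 ± 0.08 (adjusted p = 4.2e-09, edgeR). IRS2 had 280, 286 and 183 counts in WT and 165, 161 and 136 in GFI1-KO, for a log2 fold change of -0.86 ± 0.14 (adjusted p = 3.5e-06, edgeR). Neither pair of groups overlapped, and both calls held with the GC and length correction (0.76 and -1.25). SHC1, the adaptor that links receptors to RAS, rose by 1.44 ± 0.05 on the log2 scale (adjusted p = 6.3e-19, edgeR), from a normalized count of 701 to 1901, whereas SOS1, a RAS exchange factor, had a log2 fold change of -0.79 ± 0.05 (adjusted p = 9.5e-13, edgeR). GIGYF1, a GRB10-interacting protein, rose by 1.05 ± 0.05 (adjusted p = 1.5e-16, edgeR). With the correction these 3 kept their calls at smaller values, SHC1 at 1.08, SOS1 at -0.30 and GIGYF1 at 0.54.

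Of the PI3K-AKT-MTOR list, 7 of 16 tested genes were higher and 8 lower. PIK3CA, a catalytic subunit of PI3K, had a log2 fold change of -0.83 ± 0.05 (adjusted p = 5.5e-14, edgeR). PIK3R3, a regulatory subunit, fell by 0.51 ± 0.05 on the log2 scale (adjusted p = 4.2e-10, edgeR), and AKT1 rose by 0.65 ± 0.04 (adjusted p = 8.5e-15, edgeR). The number of lower genes in this list was 4 with the GC and length correction, under which PIK3CA stood at -0.14 (adjusted p = 0.0141, edgeR), PIK3R3 at -0.29 and AKT1 at 0.12 (adjusted p = 0.00255, edgeR).

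The genes of the IGF2 locus and the regulators of IGF2 RNA gave 1 higher and 4 lower of 7 tested. H19, the imprinted noncoding RNA beside IGF2, had 5, 5 and 8 counts in WT and 0 in all 3 GFI1-KO libraries, and was too low to be tested. Its WT mean was 2.23-fold above the floor of 3 counts per GFI1-KO library. That ratio leaves out the counting error of the few WT counts. The IGF2 mRNA-binding proteins went apart. IGF2BP1 was the higher gene of the list (0.37 ± 0.04 on the log2 scale, adjusted p = 3.9e-09, edgeR). It stood at 0.45 with the GC and length correction. IGF2BP2 (-0.89 ± 0.09, adjusted p = 1.3e-09, edgeR) and IGF2BP3 (-0.53 ± 0.06, adjusted p = 7.4e-09, edgeR) were lower. The zinc finger factors PLAGL1 (-0.57 ± 0.07, adjusted p = 1.5e-08, edgeR) and PLAG1 (-0.54 ± 0.11, adjusted p = 0.00013, edgeR), known activators of IGF2 transcription, were lower as well. With the GC and length correction, IGF2BP2 and PLAGL1 stayed lower, IGF2BP3 (-0.04, adjusted p = 0.557, edgeR) and PLAG1 (0.12, adjusted p = 0.384, edgeR) were not called, and 2 genes of the list were higher and 2 lower. Without WT library 2, 3 genes of this list were higher.

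The genes of mannose 6-phosphate sorting, the route that IGF2R shares, gave 5 higher and 3 lower of 8 tested. GNPTG, a subunit of the enzyme that makes the mannose 6-phosphate tag, rose by 1.07 ± 0.07 on the log2 scale (adjusted p = 3.2e-13, edgeR), and NAGPA, the enzyme that uncovers it, by 0.95 ± 0.11 (adjusted p = 3.8e-08, edgeR). The sorting adaptors GGA1 (0.94 ± 0.04, adjusted p = 1.7e-16, edgeR) and GGA3 (0.58 ± 0.06, adjusted p = 2.8e-09, edgeR) rose with them. All of these stayed higher with the GC and length correction, at 0.79, 0.63, 0.42 and 0.25.

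Position on the chromosome was not used to choose the genes. Of the 16 nearest tested protein-coding neighbours, 5 were higher and 8 lower, 81.2% called beside 72.4% of all tested genes. These were the nearest genes that passed the filter, at gaps of up to 8209 kb, so not all of them are close. Around IGF2, MRPL23 had 342, 141 and 252 counts in WT and 442, 430 and 434 in GFI1-KO, for a log2 fold change of 0.67 ± 0.14 (adjusted p = 0.00013, edgeR), which was not called with the GC and length correction (0.05, adjusted p = 0.782, edgeR). CD81 on the other side had a log2 fold change of 0.10 ± 0.04 (adjusted p = 0.0385, edgeR) and turned to -0.53 with that correction. Its call was also lost without WT library 1 (0.08), WT library 3 (0.07) or GFI1-KO library 2 (0.07). On the 2 sides of IGFBP2 and IGFBP5, the nearest were RPL37A, 53.6 kb from IGFBP2, and TNS1, 1104 kb from IGFBP5. The ribosomal protein gene RPL37A had -0.18 ± 0.04 (adjusted p = 0.00033, edgeR), and 0.15 with the correction. TNS1 had 0.72 ± 0.50 (adjusted p = 0.201, edgeR), and 1.61 without WT library 2 (adjusted p = 0.0185, edgeR). For IGFBP1 and IGFBP3, the nearest were TNS3, 1353 kb from IGFBP3, and ADCY1, 165 kb from IGFBP1. TNS3 rose by 0.63 ± 0.08 on the log2 scale (adjusted p = 6.0e-08, edgeR), and 0.37 with the correction. ADCY1 had 0.06 ± 0.10 (adjusted p = 0.602, edgeR).

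The level patterns of other genes over the 6 libraries were set beside those of IGFBP6 and IGFBP5, the binding protein genes with the highest and the lowest log2 fold change once genes with a mean below 100 counts are set aside. By Pearson's r of log2 CPM, CUL7, POLRMT and VPS4A were most like IGFBP6, and ATP2B3, LDHA and ZBTB37 most like IGFBP5. The likeness is little more than the split between the groups, since 639 and 954 of 11861 genes, respectively, had an r of at least 0.99.

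Markers of other cell types were read beside these values. The summed level of 7 fibroblast markers was 191 to 196 CPM in WT and 133 to 138 CPM in GFI1-KO, with 1 higher and 3 lower of the 4 tested. Of the defining fibroblast markers, DCN was at 0 in all libraries and THY1 at 3 counts or fewer. COL3A1 had 2, 3 and 2 counts in WT and 129, 143 and 170 in GFI1-KO, whereas PDGFRB had 136, 128 and 135 in WT and 17, 15 and 15 in GFI1-KO, and COL1A1 (-0.41) and COL1A2 (-0.54) were lower on the log2 scale. The 5 epithelial markers summed to 205 to 217 CPM in WT and 239 to 263 CPM in GFI1-KO, with 1 higher and 2 lower of 4 tested and KRT19 at 3 counts or fewer. KRT8 (log2 fold change 0.45) carried the higher sum, while EPCAM (-2.23) and CDH1 (-2.31) were lower, and the median of the list was -1.12. The 4 endothelial markers summed to 27.0 to 30.4 CPM and 13.3 to 14.9 CPM, with 1 lower and none higher of 2 tested and VWF and KDR at 2 counts or fewer. The 5 leukocyte markers summed to at most 0.509 CPM in any library, with CD3E at 0. Their part in the differences of the binding proteins was not tested.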

How the data were processed

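RNA-Seq counts of H1155 cells were taken from 6 libraries, grouped by their labels, 3 WT and 3 GFI1-KO. The authors deposited raw counts per gene, without normalization, with the position and length of each gene. The paper's methods name poly-T selection, Hisat2, featureCounts and GRCh38/hg38, and the submitters' processing notes name Bowtie2, HTSeq and hg38. The conflict could not be settled, and the annotation, strand setting and rule for reads with several matches are not given in the sources used here. A549 libraries were not analysed here.

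The 10 genes and all lists were chosen with earlier results of these data known. Genes passing filterByExpr (17514) were fitted with edgeR 4.0.16 in R 4.3.3 (TMM factors, quasi-likelihood F test, group only, Benjamini-Hochberg over all tested genes, adjusted p of at most 0.05). The SE was taken as the absolute log2 fold change over the root of F. Normalized counts are counts over the effective library size times its mean, and FPKM uses the deposited length and library total. Exact Poisson-based (binomial) 95% intervals cover counting error only, since PCR copies are not independent molecules. Library totals were 14882914 to 17692882. Replicates differed beyond sampling noise, so each counted as 1 sample.

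Named genes were GFI1, the 10 genes, INSR, IGF1, INS-IGF2, H19, IRS1, IRS2, up to 4 called genes a list with the largest change and a mean of at least 100 counts, the neighbours of IGF2, IGFBP1, IGFBP2, IGFBP3 and IGFBP5, 3 genes with the most similar levels to each of 2 binding proteins, and markers. Other genes were named after their values had been seen: those at or near 0, overlapping genes, IGF2BP1, and those under "Other observations". Some genes that this rule names are not reported here.

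Alternatives were DESeq2 1.42.0, limma-voom (limma 3.58.1), factors by upper quartile or median of ratios, library size without factors, no filter, at least 10 counts in every library, the replicate number as a block, offsets from splines (5 degrees of freedom) of GC content and length, each library left out, an adjusted p of at most 0.01, and shares of summed counts. GC content came from the 99.4% of tested genes found in GENCODE transcripts. The steps were tested on simulated data. Files were read with Python 3.11.15 and pandas 2.3.3.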

Additional observations from a re-analysis of the deposited data

How the results depend on the processing

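The 8 tested genes of the IGF axis kept their direction under every alternative run, and 6 to 8 of the 10 genes were called higher: IGFBP3 dropped out of the fit when at least 10 counts were required in every library, and 2 more rows entered without a filter. With each library left out in turn, 7 to 8 were called higher and 1 lower, the other pathway genes gave 22 to 26 higher and 22 lower, the neighbours 4 to 6 higher and 8 lower, all tested genes 6123 to 6246 higher and 6027 to 6253 lower, and the share of IGFBP2 was 70.8% to 71.6% in WT and 55.0% to 56.0% in GFI1-KO. With the GC and length correction, 15 pathway genes were lower instead of 23, with and without the replicate block. Over all tested genes, the number lower fell as well, to 4443 with correction and block instead of 6285. The number higher fell less. DESeq2 called 3 neighbours higher instead of 5. As shares of summed counts, IGFBP2 held 77.6% and 76.1%. The direction turned under the GC and length correction, with and without the block, for PLAG1 (0.12), CD81 (-0.53), ADCY1 (-0.14) and RPL37A (0.15 and 0.16). The cause of these changes was not tested, beyond the fewer or more rows that each filter leaves.

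The replicate number as a block gave 12573 calls over all genes, of which 12528 were shared with the 12680 without it, and 25 higher and 23 lower pathway genes. It changed no call of GFI1, the tested genes of the IGF axis or the pathway genes picked by the naming rule. The same held for the neighbours of IGF2, IGFBP1, IGFBP2, IGFBP3, IGFBP5 and IGFBP6. Calls of the markers and of the genes most like IGFBP5 and IGFBP6 were not compared. The labels give no pairing beyond a number, and the deviations of same-numbered libraries correlated at -0.0036, 0.0166 and 0.0235 over 11867 genes, other pairs at -0.0517 to 0.0426, so the samples share only a number.

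Depth limits IGF2, IGFBP1, IGFBP7, the WT level of IGFBP3 and the GFI1-KO level of IGFBP5, which rest on 40 counts or fewer a library. The WT level of IGFBP6 is little better covered, at 51, 30 and 37 counts. With 3 libraries a group of unknown clonal origin, differences between the labels cannot be told apart from differences between clones.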

Other observations

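Some genes of the pathway lists with a mean under 100 counts, named after their values had been seen, passed the test with large differences. STC1, the stanniocalcin related to STC2, had 37, 28 and 24 counts in the WT-labelled libraries and 1, 3 and 0 in the GFI1-KO-labelled ones, a log2 fold change of -4.50 ± 0.53 (adjusted p = 2.8e-08, edgeR), which was -5.71 without GFI1-KO library 2. CTGF, a CCN family member with an IGFBP-like domain, had 8, 8 and 6 counts in WT and 45, 21 and 37 in GFI1-KO, for a log2 fold change of 2.05 ± 0.38 (adjusted p = 2.4e-05, edgeR). Its relative CYR61 rose by 0.64 ± 0.19 (adjusted p = 0.0047, edgeR), a call lost without GFI1-KO library 3 (0.45, adjusted p = 0.0618, edgeR). INSRR, the insulin receptor-related receptor, rose by 1.69 ± 0.38 (adjusted p = 0.00027, edgeR) from between 3 and 12 counts to between 26 and 37. GRB14, an adaptor that inhibits the insulin receptor, fell from between 27 and 37 counts to between 8 and 15, a log2 fold change of -1.69 ± 0.34 (adjusted p = 7.1e-05, edgeR). All 5 kept their call with the GC and length correction.

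Around IGFBP6, SPRYD3 lies 18015 bases away and had 241, 259 and 259 counts in WT and 701, 685 and 662 in GFI1-KO, for a log2 fold change of 1.27 ± 0.07 (adjusted p = 2.5e-14, edgeR). SOAT2, 1.17 kb away on the other side, had between 15 and 24 counts in WT and between 10 and 17 in GFI1-KO, and its log2 fold change of -0.48 ± 0.35 did not pass the test (adjusted p = 0.226, edgeR) except with the GC and length correction (-0.97, adjusted p = 0.0202, edgeR). Both were picked after their values had been seen.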
